A study of Mus musculus with 12 samples.

Results

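Keratins build the intermediate filaments of epithelial cells, and 9 keratin genes that are used to tell the basal from the luminal layer of the mammary gland were followed here in tumour organoids with less claudin 7. The 9 genes were the rows of the count table with the symbols Krt5, Krt14, Krt15, Krt17 and Krt6a, taken as the basal set, and Krt7, Krt8, Krt18 and Krt19, taken as the luminal set. They are 9 of 25861 genes in the table, and all 9 were among the 17025 genes with enough counts to be tested. The rows were picked by symbol and not by measured values, but the keratins were chosen with earlier results of these data known.

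The material was MMTV-Neu mouse mammary tumour tissue, where the MMTV promoter, active mainly in mammary epithelium, drives Neu (the Erbb2 oncogene), taken as organoids and given lentivirus at a multiplicity of infection of 20. There were 3 groups of 4 libraries, numbered 1 to 4 in the titles: sh2Cldn7 (hairpin 2 against Cldn7), sh1Cldn7 (hairpin 1 against Cldn7) and shControl (a non-targeting hairpin, the control). All groups shared the tumour model, a genotype labelled WT, puromycin at 3 µg/ml for 3 days, medium with 2.5 nM FGF2 and 5 days in collagen I, and all were labelled primary epithelial cells. The stated question was the part of Cldn7 in invasion and metastasis. The age of the mice and the number of tumours are not stated by the labels, nor is it stated whether replicates were separate animals or separate cultures. The p-values therefore measure only the spread between these libraries, which may be technical.

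A keratin filament is built from pairs of 1 type I and 1 type II keratin, so that the genes work in couples. In the mammary gland, Krt5 and Krt14 mark the outer basal or myoepithelial layer, while Krt8 and Krt18 mark the luminal cells that line the duct. Krt6a and Krt17 are known in skin for their induction after wounding, Krt15 for basal keratinocytes, and Krt7 and Krt19 for simple and ductal epithelia.

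The genes lie in 2 clusters on GRCm38. Krt14 (chr11:100203162-100207548, minus strand), Krt15 (chr11:100131758-100135928), Krt17 (chr11:100256217-100261029) and Krt19 (chr11:100140810-100148665) are type I genes on the minus strand of chromosome 11. Krt5 (chr15:101707070-101712898), Krt6a (chr15:101689910-101694307) and Krt8 (chr15:101996698-102004482) are type II genes on the minus strand of chromosome 15. On the plus strand of that chromosome lie the type II gene Krt7 (chr15:101411043-101430313) and Krt18 (chr15:102028180-102032027), a type I gene that sits beside its partner Krt8. All 9 are protein-coding in GENCODE M21.

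Neighbouring keratin genes share sequence, which bears on how reads were assigned. Of all 50-base runs in the transcripts of Krt6a, 45.7% also occur in transcripts of other genes, chiefly Krt6b. The share was 26.9% for Krt8, through the pseudogene Krt8-ps, 13.9% for Krt14, through Krt16 and Krt17, 8.52% for Krt5 and 3.99% for Krt17, and under 1% for the other 4. The values of Krt6a are therefore uncertain as to which of the 2 near-identical genes the reads came from, and those of Krt8 and Krt14 less so. Genes annotated on the opposite strand overlap Krt5, Krt6a, Krt7 and Krt8, and the labels do not state how the counting used strand. The longest run of coding bases that Krt6a and Krt6b have in common is 280 bases. Its first 150 bases, coding bases 34 to 183 of both genes, are shown because a read that lies wholly within them cannot tell the genes apart, and they are followed by the 134-base run that Krt14 (coding bases 306 to 439) has in common with Krt16 (coding bases 282 to 415). Both were read from the GENCODE M21 transcripts on GRCm38 and hold no capitals, since every base is identical.
Krt6a and Krt6b: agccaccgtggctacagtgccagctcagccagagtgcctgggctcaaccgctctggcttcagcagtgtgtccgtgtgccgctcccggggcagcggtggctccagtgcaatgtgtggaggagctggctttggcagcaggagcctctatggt
Krt14 and Krt16: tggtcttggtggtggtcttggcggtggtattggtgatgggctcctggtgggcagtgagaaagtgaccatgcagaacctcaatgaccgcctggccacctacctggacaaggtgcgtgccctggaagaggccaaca

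Promoter windows are shown for Krt8 and Krt18, the filament partners that moved most closely together within the luminal set. Each window holds 300 bases around a gene start in the RefSeq table of GRCm38.p6, which had windows for 5 of the 9 genes. The Krt8 window lies at chr15:102004293-102004592, minus strand, and the Krt18 window at chr15:102027966-102028265, plus strand. Capitals mark TATAAA on either strand, where 2 overlapping matches on opposite strands were found for Krt8 and 0 for Krt18.
Krt8: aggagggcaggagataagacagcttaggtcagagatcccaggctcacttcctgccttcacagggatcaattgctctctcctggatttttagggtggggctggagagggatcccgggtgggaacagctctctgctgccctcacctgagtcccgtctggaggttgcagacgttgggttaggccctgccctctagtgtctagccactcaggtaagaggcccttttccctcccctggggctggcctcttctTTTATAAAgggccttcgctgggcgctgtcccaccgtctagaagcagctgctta
Krt18: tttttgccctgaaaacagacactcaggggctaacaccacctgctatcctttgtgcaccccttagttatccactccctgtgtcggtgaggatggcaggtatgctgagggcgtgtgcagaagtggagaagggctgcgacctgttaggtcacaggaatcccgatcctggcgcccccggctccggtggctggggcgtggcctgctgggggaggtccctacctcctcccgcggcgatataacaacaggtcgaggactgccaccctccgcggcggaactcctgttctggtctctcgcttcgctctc
Of 32851 windows in the table, 13.6% hold TATAAA. The letters GGGCGG (35.7% of windows) and TGANTCA (7.81% of windows), also searched on both strands, were found in neither. A match is a description of the letters only.

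Total counts were 34988358 to 44645514 in replicates 1 and 2 and 68581024 to 76329473 in replicates 3 and 4. Cldn7 checked the labels: it stood at 27.4, 25.4, 34.7 and 26.1 CPM (counts relative to the scaled library total) with hairpin 2, at 31.1, 30, 44.2 and 29 CPM with hairpin 1, and at 144, 136, 186 and 101 CPM in the control, replicates 1 to 4. The hairpin libraries all lay below the control libraries, and Cldn7 fell by 2.20 on the log2 scale over both hairpins (SE 0.16, edgeR adjusted p = 0.000699). Of the labelled cell type, Epcam averaged 1171 CPM and Erbb2 4365 CPM over the 12 libraries. Much of the spread between libraries of a group went with the replicate number: the biological coefficient of variation was 0.141 with that number in the model and 0.648 with the group alone. The first principal component held 70.8% of the variance, and its relation to the replicate number was not computed. Leukocyte markers summed to 1.87 to 21.9 CPM in replicates 3 and 4 and to 32.9 to 122 CPM in replicates 1 and 2, with C1qb, a macrophage complement gene, at 0 in all 6 libraries of replicates 3 and 4. Squamous markers summed to 30.2 to 60.4 CPM in replicates 3 and 4 and to 67.4 to 144 CPM in replicates 1 and 2. The largest members of that sum were Dsg3 (mean 13.6 and 30.7 CPM in the same order), Sbsn (13.8 and 23) and Sprr2a1 (0.00213 and 24.9). Other members, Tgm1 (9.61 and 7.27 CPM) and Lor (1.73 and 1.03 CPM), averaged higher in replicates 3 and 4. In such bulk samples, fewer cells of a type and less RNA per cell cannot be told apart.

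The keratins were abundant, and luminal and basal genes stood side by side at the top. Together the 9 genes made up 0.185% to 0.652% of the counts of a library. Per kb of transcript, Krt14 led with hairpin 2 at 623 ± 50.3 CPM per kb, followed by Krt18 at 618 ± 279.6, Krt8 at 509.7 ± 137 and Krt5 at 389 ± 180.1 (SD, n = 4 each). With hairpin 1 the order was Krt18 at 677 ± 287, Krt8 at 566 ± 161, Krt14 at 469.9 ± 186 and Krt5 at 317 ± 229.5 CPM per kb (SD, n = 4 each). In the control it was Krt18 at 641 ± 239, Krt8 at 525 ± 146, Krt14 at 459 ± 334 and Krt5 at 245 ± 255 CPM per kb (SD, n = 4 each). In each group the first did not differ from the second, nor the second from the third, beyond the spread between libraries.

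Below these, Krt19, Krt17, Krt6a and Krt7 followed in every group, and Krt15 came last. Krt15 averaged 8.31 ± 2.92 CPM per kb with hairpin 2, 6.19 ± 3.23 with hairpin 1 and 4.88 ± 2.94 in the control (SD, n = 4 each). Krt5 over Krt19, Krt17 over Krt6a and Krt7 over Krt15 were steps larger than their SD in each group. Krt19 and Krt17 did not differ beyond their spread, nor did Krt6a and Krt7.

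**Figure D1:**
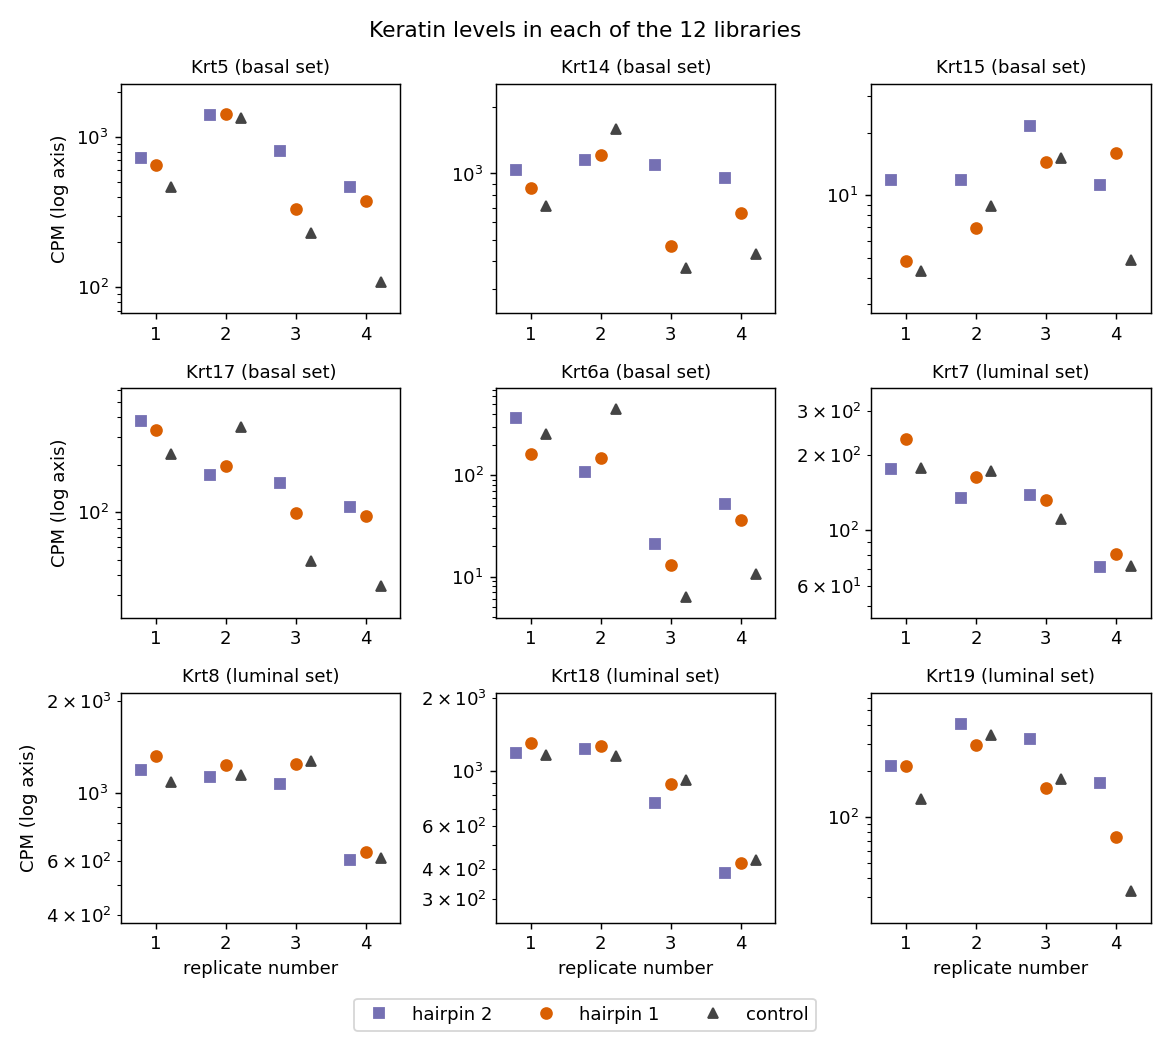
CPM on a log axis against replicate number for each keratin, with 1 point per library: squares for hairpin 2, circles for hairpin 1 and triangles for the control. Krt6a reaches at most 52.2 CPM in replicates 3 and 4 and at least 107 CPM in replicates 1 and 2, while Krt8 is low in replicate 4 alone.

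Every keratin differed between the replicate numbers, a property shared by most genes. All 9 passed edgeR's test of the replicate number, with adjusted p from 2.85e-07 for Krt18 to 0.0245 for Krt15, against 76.3% of all genes tested. Krt6a ranged from 6.26 to 52.2 CPM in replicates 3 and 4 and from 107 to 449.8 CPM in replicates 1 and 2, so that the 2 ranges did not overlap. The same held for Krt17, at 34.2 to 153 CPM in replicates 3 and 4 and 172 to 382 CPM in replicates 1 and 2, and for Krt18, at 385 to 923 CPM and 1155 to 1305 CPM in the same order. The share of all genes without overlap is not given here, so the gaps do not set these keratins apart. Krt15 went the other way, with a geometric mean in replicates 3 and 4 that was 1.68 times that in replicates 1 and 2. The leukocyte and squamous marker sums given above were lower in replicates 3 and 4. Pericyte markers went the other way, summing to 191 to 413 CPM in replicates 3 and 4 and to 162 to 189.7 CPM in replicates 1 and 2. The largest members of that sum were Notch3, which averaged 163 and 141 CPM in the same order, and Pdgfrb, at 92.6 and 14.7 CPM. The sum of 8 epithelial and tumour identity genes was also higher in replicates 3 and 4, at 6940.2 to 8789 CPM against 5013 to 6330.4 CPM in replicates 1 and 2. Its largest member, Erbb2, averaged 5333 and 3397 CPM, and Epcam, Cldn7, Cldn3 and Grhl2 also averaged higher in replicates 3 and 4. Cdh1 (463 and 565 CPM), Esrp1 (229 and 249 CPM) and Spint1 (150.2 and 164 CPM) averaged lower there. These 4 sums did not overlap between the pairs of replicate numbers, nor did that of the keratins outside the 9. The sums of fibroblast and endothelial markers and of the basal and luminal markers that are not keratins did overlap. So did those of the keratin anchors and partners and of the other intermediate filament genes. The part of all these sums in the keratin differences was not tested.

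The simple-epithelial partners kept a different balance in replicates 3 and 4 from that in replicates 1 and 2. The ratio of Krt8 to Krt18 per kb was 1.01 to 1.15 in the 6 libraries of replicates 3 and 4 and 0.673 to 0.744 in the 6 of replicates 1 and 2, with no overlap. By group it was 0.902 ± 0.236 with hairpin 2, 0.897 ± 0.201 with hairpin 1 and 0.863 ± 0.186 in the control (SD, n = 4 each), and the groups overlapped. The ratio of Krt5 to Krt14 averaged 0.61 ± 0.238 with hairpin 2, 0.622 ± 0.202 with hairpin 1 and 0.457 ± 0.192 in the control (SD, n = 4 each). The summed basal set stood at 0.954 ± 0.195 times the summed luminal set with hairpin 2, at 0.702 ± 0.267 times with hairpin 1 and at 0.643 ± 0.402 times in the control (SD, n = 4 each). The differences of these group means were smaller than the SD of the control, although within each replicate number the Krt5 to Krt14 ratio was higher in both hairpin libraries than in the control, a description with no test.

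**Figure D2:**
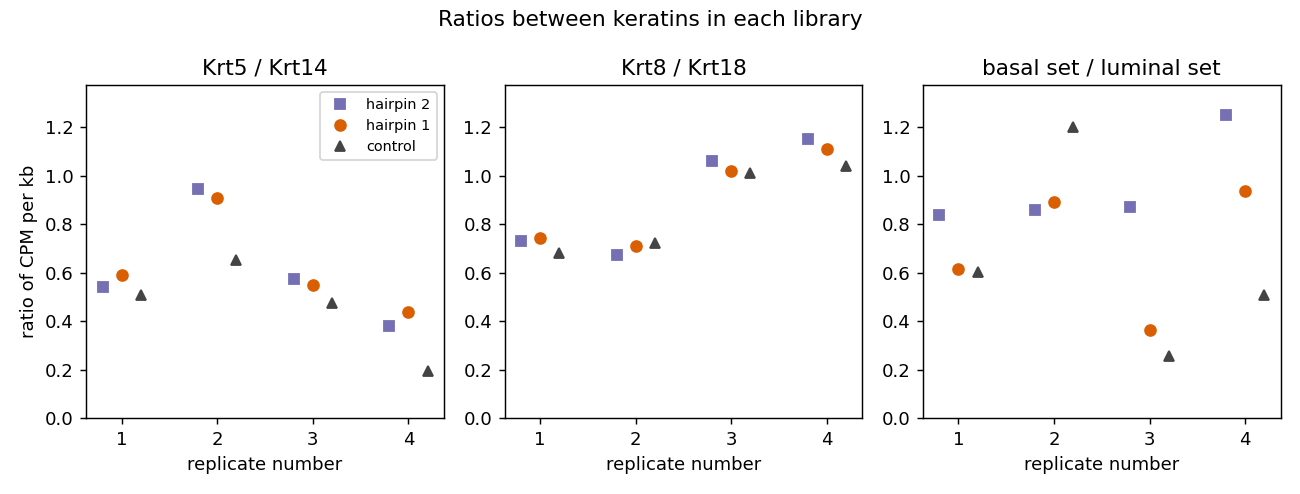
Ratios of CPM per kb against replicate number, with 1 point per library (squares for hairpin 2, circles for hairpin 1, triangles for the control). Krt8 to Krt18 separates replicates 3 and 4 (1.01 to 1.15) from replicates 1 and 2 (0.673 to 0.744), while the basal to luminal ratio runs from 0.256 to 1.25.

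The comparison of both hairpins with the control asked whether the keratins changed with less Cldn7, and none passed edgeR's test. With the group alone in the model 0 of 9 were called (adjusted p = 1 for each, against 0.00587% of all genes), 0 were under 0.05 without adjustment, and in DESeq2 0 were called. With the replicate number in the model 0 of 9 were called, against 1.79% of all genes. Without adjustment 3 of 9 were under 0.05, against 17.2% of all genes, and 0 were called in DESeq2. The share of all genes called by DESeq2 is given here only for hairpin 2 against control with the replicate number. The median log2 fold change with the replicate number was 0.56 for the basal set, 0.058 for the luminal set and -0.0024 for all genes. Unless stated otherwise, the fold changes below are edgeR's from the model that holds the replicate number.

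Krt5, the type II keratin of basal cells, had the largest fold change of the 9. It stood at 728, 1405, 814 and 469 CPM with hairpin 2, at 656, 1420.4, 331 and 374 CPM with hairpin 1, and at 469, 1346, 229 and 108 CPM in the control, replicates 1 to 4. The groups overlapped, but within each replicate number both hairpin libraries were above their control, in 8 of 8 pairs, which held for 3.72% of all genes. Both pairs of a replicate number share the same control library, so the pairs are not independent. The log2 fold change was 0.90 (SE 0.28, edgeR adjusted p = 0.129), and 0.52 (SE 0.64, edgeR adjusted p = 1) with the group alone. In replicate 2 the pairs differed by only 0.061 with hairpin 2 and 0.077 with hairpin 1 (log2).

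Krt14, the type I partner of Krt5, stood at 1038, 1149, 1097 and 950 CPM with hairpin 2, at 858, 1207, 466 and 661 CPM with hairpin 1, and at 715, 1599, 372 and 431 CPM in the control. The hairpin 2 libraries lay close together, and the highest single library was control replicate 2. Its log2 fold change was 0.43 (SE 0.23, edgeR adjusted p = 0.367), and it was above its control in 6 of 8 pairs. Both pairs below their control were those of replicate 2.

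Krt17 stood at 382, 172, 153 and 108 CPM with hairpin 2, at 333, 198, 98.8 and 94.1 CPM with hairpin 1, and at 233, 350.3, 49.3 and 34.2 CPM in the control. Again control replicate 2 was above both hairpin libraries of its number. The log2 fold change was 0.56 (SE 0.34, edgeR adjusted p = 0.441). Krt6a, the wound-associated type II keratin, stood at 371, 107, 20.8 and 52.2 CPM with hairpin 2, at 163, 149, 13 and 36.3 CPM with hairpin 1, and at 257, 449.8, 6.26 and 10.5 CPM in the control. Its sign depended on the model, at 0.15 (SE 0.53, edgeR adjusted p = 0.922) with the replicate number and -0.70 (SE 1.11, edgeR adjusted p = 1) with the group alone. Krt15, the least abundant, stood at 11.8, 11.9, 21.6 and 11.2 CPM with hairpin 2, at 4.79, 6.93, 14.5 and 15.9 CPM with hairpin 1, and at 4.32, 8.88, 15.1 and 4.85 CPM in the control, a log2 fold change of 0.63 (SE 0.27, edgeR adjusted p = 0.274). For each of these 3 genes the groups overlapped.

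In the luminal set, Krt19 differed in size from the other 3. Krt19, a type I keratin of ductal epithelium, stood at 218, 405, 325 and 168 CPM with hairpin 2, at 216, 298, 155 and 73.8 CPM with hairpin 1, and at 132, 344, 179 and 32.7 CPM in the control. Its log2 fold change was 0.67 (SE 0.25, edgeR adjusted p = 0.207), with 4 of 4 pairs above the control for hairpin 2 and 2 of 4 for hairpin 1. Krt8 stood at 1188, 1129, 1073 and 603 CPM with hairpin 2, at 1323, 1232, 1239.8 and 641 CPM with hairpin 1, and at 1086, 1140.4, 1269.8 and 615 CPM in the control. Its log2 fold change was 0.032 (SE 0.058, edgeR adjusted p = 0.833), while replicate 4 was the lowest library of every group.

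Krt18, the partner of Krt8, stood at 1195, 1230.2, 745 and 385 CPM with hairpin 2, at 1305, 1273, 892 and 422 CPM with hairpin 1, and at 1169, 1155, 923 and 435 CPM in the control. The groups overlapped, and the log2 fold change was -0.021 (SE 0.061, edgeR adjusted p = 0.903), against 0.014 (SE 0.39) with the group alone. Krt7, a type II keratin of simple epithelia, stood at 176, 135, 139 and 71.5 CPM with hairpin 2, at 231, 163, 132 and 80.1 CPM with hairpin 1, and at 177, 172, 111 and 71.9 CPM in the control. Its log2 fold change was 0.085 (SE 0.085, edgeR adjusted p = 0.665). Krt7, Krt8 and Krt18 were each above their control in 4 of 8 pairs.

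**Figure D3:**
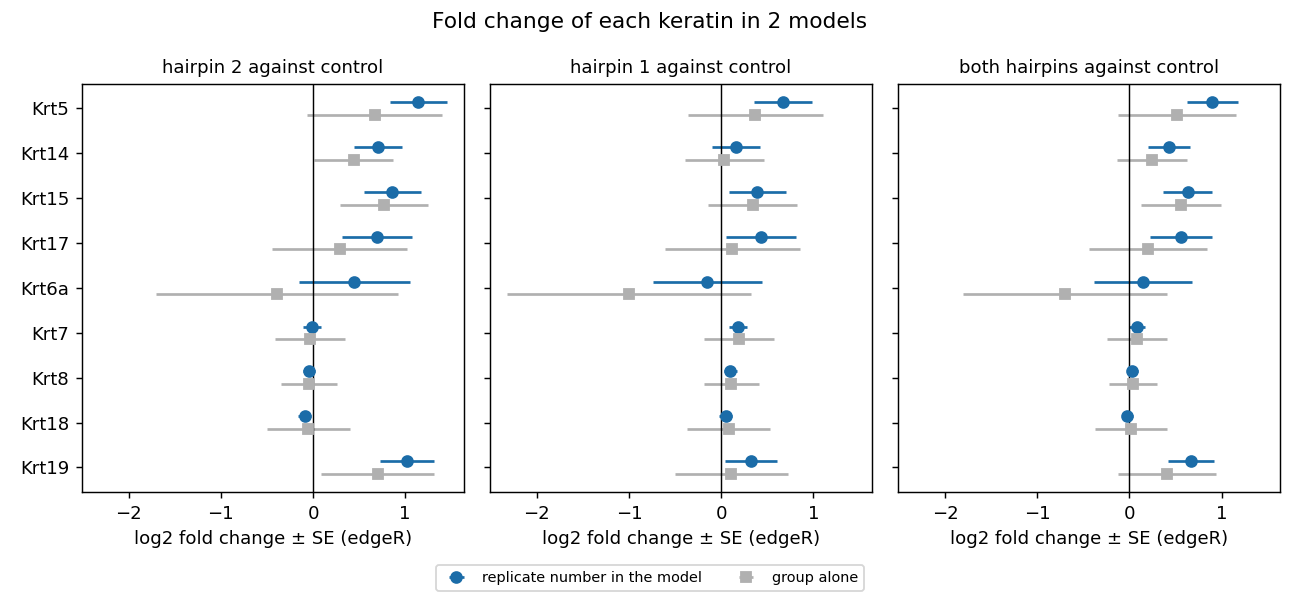
log2 fold change with its SE for each keratin, from edgeR with the replicate number in the model (circles) and with the group alone (squares), for hairpin 2, hairpin 1 and both hairpins against the control. With the replicate number Krt5 is at 1.14, 0.67 and 0.90 in these 3 panels, while Krt7, Krt8 and Krt18 stay between -0.091 and 0.18.

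Hairpin 2 gave larger fold changes than hairpin 1 for the 5 basal keratins and Krt19. With hairpin 2 alone edgeR called 0 of 9 in both models, against 5.76% of all genes with the replicate number and 0.00587% with the group alone, and 4 had an unadjusted p under 0.05 with the replicate number, against 22.6% of all genes. Krt5 was at 1.14 (SE 0.31, edgeR adjusted p = 0.0617), Krt19 at 1.02 (SE 0.29, edgeR adjusted p = 0.0692), Krt15 at 0.86 (SE 0.31, edgeR adjusted p = 0.131) and Krt14 at 0.70 (SE 0.26, edgeR adjusted p = 0.144). DESeq2 with the replicate number called 3 of 9 as higher, Krt5 (DESeq2 adjusted p = 0.0269), Krt15 (0.0315) and Krt19 (0.0359), against 5.91% of all genes called higher. Without the filter on low counts, edgeR with the replicate number called 2 of 9, Krt5 at 1.16 (edgeR adjusted p = 0.029) and Krt19 at 1.03 (0.0319), against 4.29% of all genes. Krt8 was at -0.041 (SE 0.067) and Krt18 at -0.091 (SE 0.07).

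With hairpin 1 alone edgeR called 0 of 9, against 0.728% of all genes with the replicate number and 0.00587% with the group alone. None had an unadjusted p under 0.05 with the replicate number, against 12.8% of all genes, and DESeq2 called 0. Krt5 was again at the top with 0.67 (SE 0.31, edgeR adjusted p = 0.401), and Krt6a was at -0.15 (SE 0.59, edgeR adjusted p = 0.953). Hairpin 2 against hairpin 1, the test of the difference itself, also called 0 of 9, against 3.44% of all genes with the replicate number and 0.00587% with the group alone. There 1 gene had an unadjusted p under 0.05 with the replicate number, against 20.1% of all genes: Krt19, at 0.70 (SE 0.28, edgeR adjusted p = 0.201). DESeq2 called 0.

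For Krt5, Krt14, Krt17 and Krt6a the pair differences were larger in replicates 3 and 4 than in replicates 1 and 2, though the difference between them was not called. The mean log2 difference of the pairs in replicates 3 and 4, against that in replicates 1 and 2, was 1.57 against 0.31 for Krt5, 0.91 against -0.021 for Krt14, 1.44 against -0.16 for Krt17 and 1.71 against -0.95 for Krt6a. For Krt19 it was 1.05 against 0.37 and for Krt15 0.84 against 0.42. With hairpin 2 alone, the log2 fold change of Krt15 in replicates 3 and 4 was 0.80, against 0.92 in replicates 1 and 2. The 2 pairs of replicate numbers were compared in an interaction model added after the data were seen, with 4 residual degrees of freedom, in which 0 of 9 keratins were called for both hairpins, hairpin 1 or hairpin 2, against 0% of all genes in each. For both hairpins 5 of 9 had an unadjusted p under 0.05, against 6.07% of all genes, for hairpin 1 it was 3 against 3.84%, and for hairpin 2 it was 6 against 7.51%. The difference for both hairpins was 2.70 for Krt6a (SE 0.61, edgeR adjusted p = 0.479), 1.66 for Krt17 (SE 0.41, edgeR adjusted p = 0.528), 1.27 for Krt5 (SE 0.32, edgeR adjusted p = 0.529) and 0.96 for Krt14 (SE 0.28, edgeR adjusted p = 0.594).

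**Figure D4:**
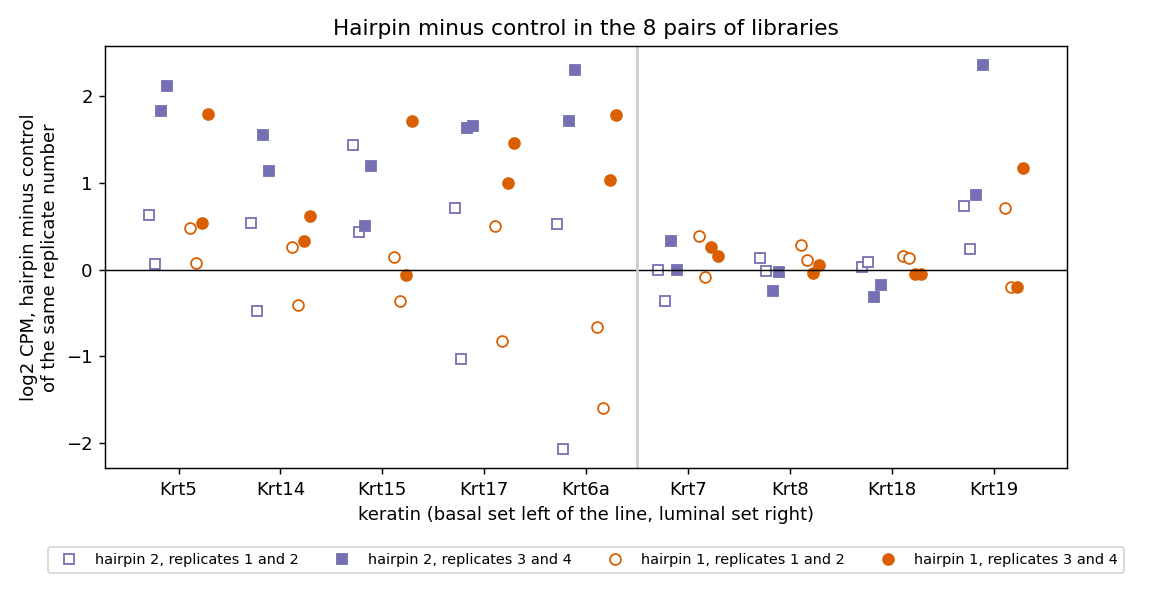
log2 CPM of a hairpin library minus that of the control library of the same replicate number, for 8 pairs per keratin (squares for hairpin 2, circles for hairpin 1; filled for replicates 3 and 4, open for replicates 1 and 2). For Krt6a the pairs run from -2.07 to 2.3, and for Krt18 from -0.31 to 0.16.

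Fitted by themselves, replicates 3 and 4 gave calls and replicates 1 and 2 gave none. In replicates 3 and 4, with 2 libraries a group, 4 of 9 rose with hairpin 2, against 1.98% of all genes: Krt6a by 2.03 (SE 0.19, edgeR adjusted p = 0.0198), Krt17 by 1.67 (SE 0.14, 0.0198), Krt5 by 1.98 (SE 0.29, 0.0316) and Krt14 by 1.38 (SE 0.19, 0.0263), as log2 fold changes. For both hairpins Krt17 alone was called, at 1.46 (SE 0.13, edgeR adjusted p = 0.0441), against 0.0303% of all genes, and for hairpin 1 it was 0 of 9 against 0.00605%. In replicates 1 and 2 it was 0 of 9 for both hairpins, hairpin 2 and hairpin 1, against 0.151%, 0.494% and 0.0542% of all genes. Since the interaction was not called, replicates 3 and 4 are not shown to differ from replicates 1 and 2.

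Single libraries also decided calls. Without control replicate 2, which held the highest Krt14 and Krt6a, hairpin 2 gave calls for Krt17 (1.25, edgeR adjusted p = 0.0107), Krt5 (1.44, 0.026), Krt14 (1.00, 0.0272) and Krt19 (1.26, 0.0387), and both hairpins gave a call for Krt17 (1.15, 0.022), against 5.92% of all genes for hairpin 2 and 1.81% for both hairpins. Without hairpin 2 replicate 2, hairpin 2 gave calls for Krt14 (0.99, edgeR adjusted p = 0.0289) and Krt5 (1.40, 0.0303), against 6.12% of all genes. Without hairpin 1 replicate 4 it gave a call for Krt15 (0.89, edgeR adjusted p = 0.0278), against 4.26% of all genes.

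Within a replicate number some keratins varied together. After the mean of each number was subtracted from log2 CPM, Krt5 and Krt14 correlated at 0.902, Krt17 and Krt6a at 0.908 and Krt8 and Krt18 at 0.845 over the 12 libraries. Krt19 went with the basal set, at 0.88 with Krt5, and Krt14 and Krt18 ran opposite, at -0.846. Krt7 followed neither set closely, from -0.098 with Krt15 to 0.557 with Krt17, and stood at 0.271 with Krt8. The points share libraries, scaling and subtracted means, so the values are descriptions. The 5 genes most like Krt14 among 12382 were Ppp1r18 (r = 0.979), Tppp3 (0.978), Map1a (0.978), Atp2b4 (0.972) and Rin3 (0.971), and those most like Krt8 were Susd4 (0.961), Aspscr1 (0.946), Arhgef39 (0.946), Rbm42 (0.935) and Pcbp3 (0.933).

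**Figure D5:**
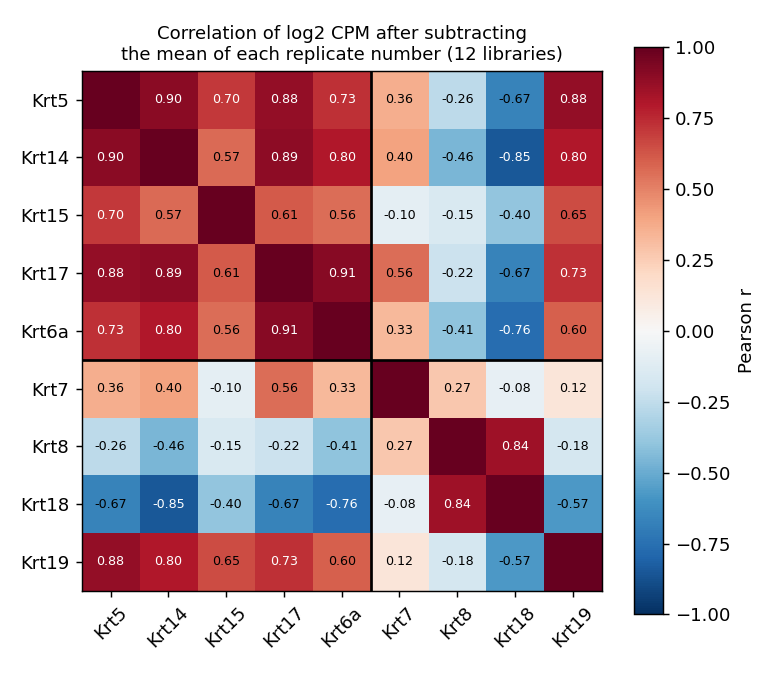
Pearson correlation of log2 CPM between the 9 keratins over 12 libraries after subtraction of each replicate number's mean, with red for positive and blue for negative values. The 5 basal keratins and Krt19 are positive among themselves, Krt8 and Krt18 reach 0.845, and Krt14 and Krt18 stand at -0.846.

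Few other genes of the keratin system were called with the hairpins, and few of all genes were. Of 28 other keratins tested, of 45 in the table, 0 were called for both hairpins, against 1.79% of all genes, with a median log2 fold change of 0.11 beside -0.0024 for all genes. For hairpin 2 alone 1 of 28 rose, Krt71, by 1.04 (SE 0.27, edgeR adjusted p = 0.0499), against 5.76% of all genes, and 25 of 28 were called for the replicate number, against 76.3%. Krt6b, the near copy of Krt6a, averaged 1.65 CPM in replicates 3 and 4 and 104 CPM in replicates 1 and 2, and Krt16, a type I keratin of wounded skin, 9.1 and 70 CPM in the same order. Krt20 was listed with no counts in 5 of the libraries numbered 3 and 4, against 5.29 to 25.7 CPM in those numbered 1 and 2. Of 14 other intermediate filament genes tested 0 were called for both hairpins, hairpin 2 or hairpin 1, against 1.79%, 5.76% and 0.728% of all genes. Vim, the mesenchymal filament gene, was at 0.11 (SE 0.12) for both hairpins. Of 22 keratin anchors and partners 0 rose and 1 fell, the epithelial filament-organising gene Pof1b, by 0.27 (SE 0.049, edgeR adjusted p = 0.0262), against 1.79% of all genes. Pof1b was also the 1 of 22 called with hairpin 1, lower by 0.36 (SE 0.057, edgeR adjusted p = 0.0241), against 0.728% of all genes. With hairpin 2 the hemidesmosome collagen gene Col17a1 was the 1 of 22 called, against 5.76% of all genes. It was higher by 0.96 (SE 0.24, edgeR adjusted p = 0.0428), and it was at 0.76 for both hairpins (edgeR adjusted p = 0.099).

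Some genes listed as basal or myoepithelial markers other than keratins did pass, though the cells they came from are not told by bulk counts. Of 14 such genes 6 rose and 0 fell for both hairpins, against 1.79% of all genes called, with a median of 0.76 against -0.0024 for all genes. For hairpin 2 it was 10 of 14, against 5.76%, and for hairpin 1 0 of 14, against 0.728%. The list overlaps the smooth muscle theme of the study's title, so its direction is no independent evidence. Cdh3, the P-cadherin gene, rose by 0.86 (SE 0.14), Cnn1, which encodes calponin, by 1.83 (SE 0.30), the WNT pathway receptor gene Lgr5 by 1.30 (SE 0.23) and the transgelin gene Tagln by 1.14 (SE 0.21), with edgeR adjusted p of 0.0183, 0.0193, 0.0247 and 0.0266. With the group alone in the model none of the 14 passed. Of 17 luminal genes that are not keratins, 1 rose and 2 fell for both hairpins, against 1.79% of all genes: Wfdc18 rose by 0.41 (SE 0.085, edgeR adjusted p = 0.042), and Aldh1a3 fell by 0.34 (SE 0.069, 0.036) and Epcam by 0.25 (SE 0.053, 0.0485). For hairpin 2 it was 4 of 17, with 2 higher and 2 lower, against 5.76%, and for hairpin 1 0 of 17, against 0.728%.

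Markers of other cells were present beside these values. Fibroblast markers summed to 539 to 8876 CPM with hairpin 2, 261 to 5048 CPM with hairpin 1 and 238 to 4136 CPM in the control, and 0 of 10 passed for both hairpins, against 1.79% of all genes. For hairpin 2 it was 1 of 10, Dcn, higher by 1.02 (SE 0.17, edgeR adjusted p = 0.0113), against 5.76%. Pericyte markers summed to 168 to 413, 163 to 372 and 162 to 341 CPM in the same groups. For both hairpins 1 of 6 rose, Pdgfrb, by 0.47 (SE 0.10, edgeR adjusted p = 0.0496), against 1.79% of all genes. For hairpin 2 it was 2 of 6, Pdgfrb at 0.67 (SE 0.11, edgeR adjusted p = 0.011) and Cspg4 at 0.74 (SE 0.18, 0.0405), against 5.76%. Of 12 squamous, 7 endothelial and 11 leukocyte markers tested 0 passed for both hairpins, against 1.79% of all genes. For hairpin 2 it was 2, 0 and 0, against 5.76%. The 2 squamous genes were Sbsn and Flg, and Flg was at 0 in 4 libraries and reached at most 6.81 CPM. The part of all these markers in the keratin values was not tested.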

How the data were processed

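The authors deposited 1 table of raw read counts per gene with 1 column for each of the 12 libraries, per the file headers, and these counts were not normalized. The first column holds NCBI Gene numbers, and 1 row has a number but no symbol and was kept. Per the submitters' processing notes, FastQC 0.74, Trimmomatic 0.39, DESeq2 1.34.0 and the build mm10 were used, in roles that are not stated. For the aligner, the annotation and the strand setting, no source used here gives a name. Per the labels, libraries came from oligo-dT selected RNA with a NEBNext Ultra kit.

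The filter was filterByExpr by group (17025 genes kept, 8836 left out) and the scaling TMM. Tests were edgeR 4.0.16's quasi-likelihood tests (glmQLFit, glmQLFTest, R 4.3.3) on the whole table and all 12 libraries, and p-values were adjusted over the 17025 genes by Benjamini and Hochberg's method, with calls at 0.05. The design set as primary had the group alone. The second had the replicate number as a block, and DESeq2 1.42.0 was an alternative. Replicate numbers come from the titles. Deviations from group means correlated at 0.855 to 0.916 between libraries of the same number and at -0.807 to 0.727 between other numbers, and 12 of 12 libraries were nearest to their own number, so the numbers pair the libraries. No 2 libraries of a group agreed as duplicates would (chi-square per degree of freedom 50.7 to 570, over genes with at least 10 counts). CPM per kb used the length of the principal transcript in GENCODE M21. The step was tested on simulated data of 16765 genes for both hairpins against the control: of 100 genes changed by 1 on the log2 scale it recovered 89 with the replicate number and 45 with the group alone, and of 100 changed by 0.5 it recovered 72 and 5. With the replicate number it also called 18 unchanged genes. The changed genes were drawn from those with a mean count above 100, and each gene kept its own spread. The recovered shares therefore do not give the chance of calling any single keratin.

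The keratins and all gene lists were chosen with earlier results of these data known. Genes named were the 9 keratins, Cldn7, list members past the threshold for both hairpins with the replicate number (at most 4 of smallest p a list), defining markers at 0, and the 5 genes most like Krt14 and Krt8 with a mean of at least 2 CPM (log2 CPM with a prior count of 2). Krt6b, Krt16, Krt20, Vim and Erbb2 were named after their values were seen.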

Additional observations from a re-analysis of the deposited data

Results flagged for a closer look

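Of 36 groups of 4 libraries examined, 3 held a library far from the other 3, where chance gives about 1 in 20. Krt15 stood at 21.6 CPM in hairpin 2 replicate 3, above 11.2 to 11.9 CPM in the other hairpin 2 libraries. Krt8 stood at 641 CPM in hairpin 1 replicate 4, below 1232 to 1323 CPM in the other hairpin 1 libraries, and replicate 4 was the lowest for Krt8 in the other groups too. The basal to luminal ratio was 1.25 in hairpin 2 replicate 4, above 0.839 to 0.87 in the other hairpin 2 libraries.

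Krt18 was above its control in all 4 pairs of replicates 1 and 2 (mean log2 difference 0.11) and below it in all 4 pairs of replicates 3 and 4 (mean -0.14). Tested as an interaction, the difference for both hairpins was -0.25 (SE 0.11, unadjusted p = 0.0446, edgeR adjusted p = 0.813), which did not pass.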

How the results depend on the processing

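Against the control, the count of keratins called was 0 for hairpin 1 under every setting run, and 0 for both hairpins and hairpin 2 except as follows. For hairpin 2 it was 2 with no filter and the replicate block, 3 with DESeq2 and the replicate block, and 4 in replicates 3 and 4 alone, and for both hairpins it was 1 in replicates 3 and 4 alone. With 1 library left out it ranged from 0 to 4 for hairpin 2 and from 0 to 1 for both hairpins, and for the replicate number from 8 to 9. Hairpin 2 against hairpin 1 gave 0 throughout.

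The settings other than leaving out 1 library gave 279 fold changes of single keratins, some from fits of only the compared groups or of only 2 replicate numbers. Of these, 239 kept direction and side of the threshold, 31 turned sign against the model with the group alone and 10 became calls. The calls of Krt17 for both hairpins and of Krt5, Krt14, Krt17 and Krt6a for hairpin 2 came from replicates 3 and 4 alone. Among the calls 1 (Krt6a with hairpin 2 in replicates 3 and 4) also turned sign. The cause was not tested. With the replicate block, which pairs libraries by number, Krt6a was at 0.15 for both hairpins and 0.45 for hairpin 2, and Krt18 at -0.021 for both. DESeq2 size factors with the block gave 0.15, 0.45 and -0.022 in the same order, no filter with the block 0.16, 0.47 and -0.0081, with Krt7 at 0.005 for hairpin 2, and DESeq2 with the block 0.21, 0.51 and -0.022. With only the compared groups in the fit and the block, Krt6a was at 0.061 for hairpin 1 and 0.69 for hairpin 2. In replicates 1 and 2 alone, Krt14 was at -0.04, Krt17 at -0.22 and Krt7 at -0.019 for both hairpins, Krt14 at -0.095, Krt15 at -0.13 and Krt17 at -0.23 for hairpin 1, and Krt17 at -0.21, Krt8 at 0.052 and Krt18 at 0.057 for hairpin 2. In replicates 3 and 4 alone, Krt6a was at 1.74, Krt8 at -0.042 and Krt18 at -0.13 for both hairpins, Krt6a at 1.44 and Krt18 at -0.028 for hairpin 1, and Krt6a at 2.03 and Krt7 at 0.19 for hairpin 2.

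With 1 library left out, in either model, values for both hairpins ran from -0.14 to 1.15 for Krt17, -1.3 to 1.02 for Krt6a, -0.12 to 0.25 for Krt7, -0.15 to 0.16 for Krt8 and -0.22 to 0.15 for Krt18, and without a turn of sign from 0.18 to 1.52 for Krt5, 0.011 to 0.86 for Krt14, 0.34 to 1.03 for Krt15 and 0.062 to 0.99 for Krt19. For hairpin 1 they ran from -0.23 to 1.37 for Krt5, -0.23 to 0.66 for Krt14, -0.054 to 0.82 for Krt15, -0.35 to 1.04 for Krt17, -1.46 to 0.8 for Krt6a, -0.082 to 0.4 for Krt7, -0.071 to 0.3 for Krt8, -0.15 to 0.33 for Krt18 and -0.23 to 0.7 for Krt19. For hairpin 2 they ran from -0.21 to 1.25 for Krt17, -1.59 to 1.24 for Krt6a, -0.23 to 0.17 for Krt7, -0.22 to 0.14 for Krt8 and -0.28 to 0.2 for Krt18, and without a turn of sign from 0.32 to 1.67 for Krt5, 0.21 to 1.07 for Krt14, 0.49 to 1.24 for Krt15 and 0.36 to 1.29 for Krt19. Without division by length, the Krt8 to Krt18 ratio was 1.23, 1.22 and 1.18 with hairpin 2, with hairpin 1 and in the control. The 5 genes most like Krt14 and the 5 most like Krt8 were the same with a prior count of 0.5.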
